A study of Sus scrofa with 4 samples.

Results

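The 6 miRNAs described here mark tissues other than the one cultured: miR-126 (endothelium), miR-142 (blood cells), miR-122 (liver), miR-9 (neurons), miR-184 and miR-205 (epithelium). They were chosen by name from the pig hairpin entries mir-126, mir-142, mir-122, mir-9, mir-184 and mir-205, with copies of a hairpin counted as 1 miRNA, and they are 6 of the 189 miRNAs with a read in the series. Their 7 hairpin entries were present in all 4 libraries and all 7 matched a pig gene symbol. The levels were read as a check of how far the cultures held RNA of other cell types.

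The cells were primary pig vascular stem cells at passage 1. SVSC came from subcutaneous fat and IVSC from the longissimus dorsi, a muscle of the back. The labels give the cell type of all 4 samples as adipose derived, those from muscle included. The groups were SVSC MDI, SVSC, IVSC MDI and IVSC, with 1 small RNA library each (n = 1). MDI stands for adipogenic induction of confluent cells with 5 mg/l insulin, the glucocorticoid dexamethasone at 0.25 µM and IBMX, which blocks phosphodiesterases, at 0.5 mM. All media held 20% serum. Dexamethasone and IBMX were left out after 3 days, plain growth medium returned at day 6, and the cells were kept for 3 or 4 more days. The labels do not say which of these lengths applied to which culture, or whether the cultures shared an animal.

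A miRNA is cut from a hairpin precursor. One strand, the mature miRNA, is usually kept in the silencing complex and the opposite star strand is mostly degraded. Some miRNAs are made almost only in 1 lineage. In mammals miR-126 lies in an intron of the endothelial gene EGFL7 and supports vessel integrity. miR-142 is made throughout the blood lineages, and miR-122 is the dominant miRNA of hepatocytes. miR-9 acts in neural progenitors and neurons, miR-184 is abundant in the corneal epithelium and lens, and miR-205 is abundant in stratified and glandular epithelia. Such miRNAs serve as tracers of admixed cells, although low levels outside their tissue are known. In a bulk library, fewer cells of a type and less RNA per cell cannot be told apart.

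The libraries held 2573249 (SVSC MDI), 17937121 (SVSC), 14810112 (IVSC MDI) and 13252168 (IVSC) miRNA reads. Levels are given as CPM, the share of a library's miRNA reads scaled to 1e+06 reads, with exact Poisson 95% intervals in parentheses. A count of 0 allows up to 3 reads, which is 1.17 CPM in SVSC MDI, 0.167 CPM in SVSC, 0.203 CPM in IVSC MDI and 0.226 CPM in IVSC. The SVSC MDI library was thus the least sensitive. Hairpins also took 55.0% of all deposited reads there, against 70.2% to 77.0% in the other libraries, and the part of this difference in the results was not tested. With 1 library per group there is no replicate error, and intervals and limits cover counting error only.

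The 6 markers together took 186 CPM in SVSC MDI, 109 CPM in SVSC, 151 CPM in IVSC MDI and 204 CPM in IVSC, which is 0.0109% to 0.0204% of the miRNA reads. All 6 had reads in every library. miR-205 was the lowest in SVSC, IVSC MDI and IVSC, and miR-122 in SVSC MDI. miR-126 was the highest in SVSC, IVSC MDI and IVSC, and miR-9 in SVSC MDI. The most abundant miRNA of a library had 6124 (SVSC MDI), 8376 (SVSC), 4329 (IVSC MDI) and 2610 (IVSC) reads for each read of miR-126. It was miR-21 in SVSC and miR-143 in the other libraries.

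**Figure D1:**
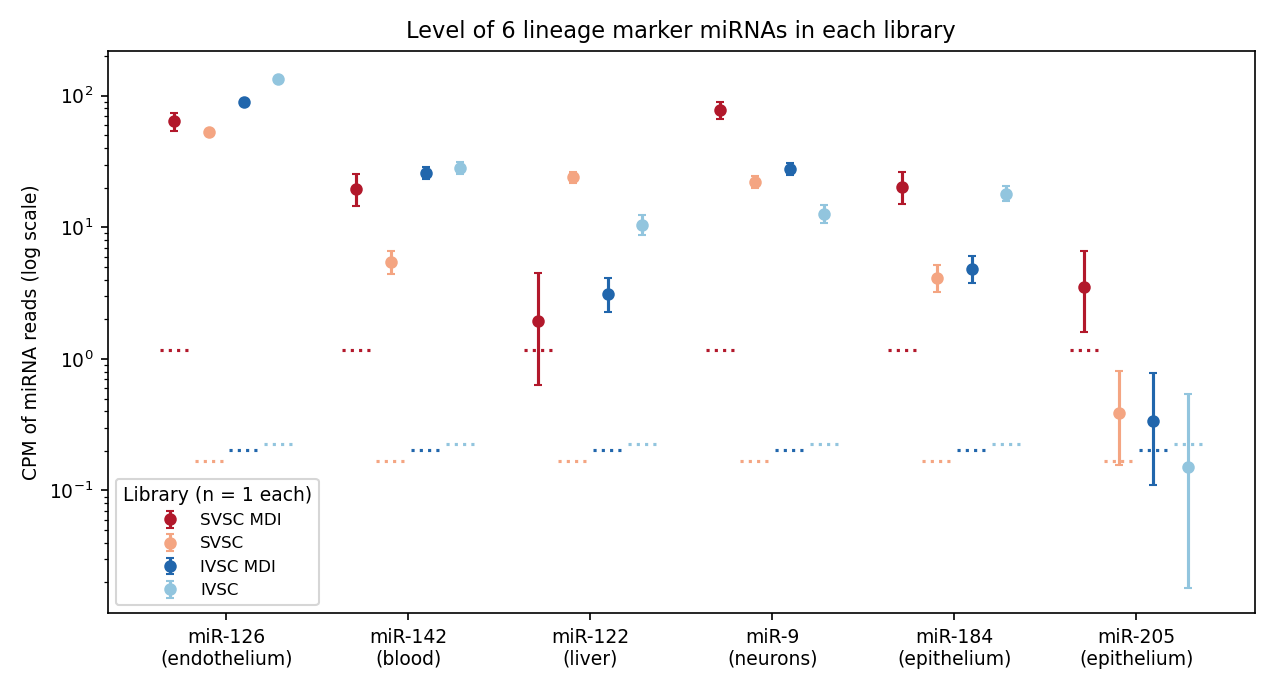
CPM (log axis) of the 6 lineage marker miRNAs in each library, 1 point per library with its exact Poisson 95% interval. Dotted lines mark the limit that a count of 0 allows in that library. Only miR-205 in IVSC lies below its limit, and only miR-126 and miR-9 exceed 10 CPM in all 4 libraries.

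For the labelled cell type, a list of mesenchymal and perivascular miRNAs was read (miR-143, miR-145, miR-199a, miR-199b and miR-214). The list was chosen with earlier results of these data known, so it is not an independent check of the cell type. All 5 were present in every library and together took 40.9% of the miRNA reads in SVSC MDI, 26.2% in SVSC, 40.2% in IVSC MDI and 35.9% in IVSC. miR-143 made up most of each sum. miR-145, which is made with miR-143 in smooth muscle, had 7440 CPM in SVSC MDI, 895 CPM in SVSC, 5605 CPM in IVSC MDI and 1058 CPM in IVSC. It was called higher with MDI in both cultures, and none of the other 4 was. miR-143 had a ratio of 1.53 in SVSC MDI to SVSC and 1.11 in IVSC MDI to IVSC. miR-199a had a ratio of 2.16 in SVSC MDI to SVSC and 0.971 in IVSC MDI to IVSC, miR-199b had 2.15 in SVSC MDI to SVSC and 1.06 in IVSC MDI to IVSC, and miR-214 had 1.22 in SVSC MDI to SVSC and 0.473 in IVSC MDI to IVSC. Of 5 skeletal muscle miRNAs, summed levels were 888 CPM in SVSC MDI, 1853 CPM in SVSC, 1137 CPM in IVSC MDI and 6275 CPM in IVSC. miR-206, which is restricted to skeletal muscle and its precursors, had 1.55 CPM in SVSC MDI, 2.79 CPM in SVSC, 140 CPM in IVSC MDI and 4874 CPM in IVSC. The other muscle miRNAs did not share this order. miR-1, of heart and skeletal muscle, had 661 CPM in SVSC MDI, 1818 CPM in SVSC, 882 CPM in IVSC MDI and 1242 CPM in IVSC. miR-133a, made with miR-1 in muscle, was 9.18-fold higher in SVSC MDI than in SVSC (8.03 to 10.5) and 2.32-fold higher in SVSC MDI than in IVSC MDI (2.09 to 2.58), but 3.61-fold lower in SVSC than in IVSC (3.21 to 4.07). miR-133b was 12.2-fold higher in SVSC MDI than in SVSC (7.22 to 21.1) and 4.18-fold lower in IVSC MDI than in IVSC (3.62 to 4.83). miR-499, of heart and slow muscle, was between 9.20 and 13.3 CPM in all 4 libraries. Muscle miRNAs were thus the largest of the non-mesenchymal sums in every library, above blood (354 to 467 CPM), neurons (45.7 to 299 CPM), endothelium (52.6 to 134 CPM), liver (8.16 to 39.0 CPM) and epithelium (4.52 to 23.7 CPM). The sums cover unlike parts of their lists. A hairpin entry with a read existed for 5 of 5 muscle miRNAs but for 2 of 9 epithelial ones. The epithelial sum leaves out miR-203, which had reads outside the hairpin entries.

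**Figure D2:**
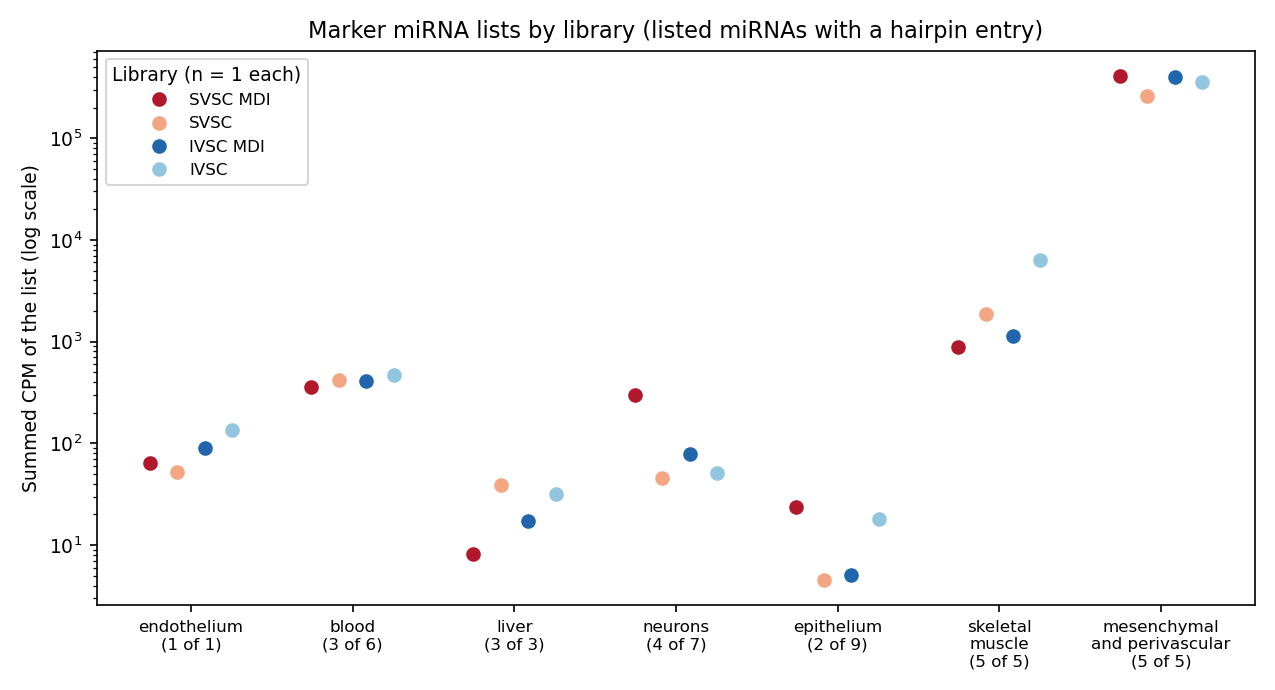
Summed CPM (log axis) of 7 marker miRNA lists in each library, 1 point per library. The numbers below each list give how many of its miRNAs have a hairpin entry with a read. The mesenchymal list lies at 262057 CPM or more in every library, and the lists of other tissues stay at or below 6275 CPM.

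The endothelial miR-126 was read 164 times in SVSC MDI, 944 times in SVSC, 1327 times in IVSC MDI and 1777 times in IVSC. This is 63.7 CPM (54.4 to 74.3) in SVSC MDI, 52.6 CPM (49.3 to 56.1) in SVSC, 89.6 CPM (84.8 to 94.6) in IVSC MDI and 134 CPM (128 to 140) in IVSC. By level it was the 108th of 181 miRNAs in SVSC MDI, the 104th of 182 in SVSC, the 97th of 186 in IVSC MDI and the 90th of 187 in IVSC. The order from high to low was IVSC, IVSC MDI, SVSC MDI and SVSC. Only the intervals of the last pair overlapped. Both cultures from muscle thus lay above both from fat, and the range over the series was 2.55-fold.

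Between origins, miR-126 was 2.55-fold lower in SVSC than in IVSC (95% counting interval 2.35 to 2.76), and 1.41-fold lower in SVSC MDI than in IVSC MDI (1.19 to 1.66). With MDI its ratio was 1.21 in SVSC (1.02 to 1.43) and 0.668 in IVSC (0.622 to 0.718), both short of 2-fold. The ratio of 1.21 fell below 1 under all 4 other scalings, with log2 values between -0.23 and -0.12. The difference between SVSC and IVSC was short of 2-fold under DESeq2 size factors (log2 ratio -0.98). In the cultures after MDI it passed 2-fold lower under scaling to all deposited reads (log2 ratio -1.01).

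miR-126 was the only one of the 6 with reads counted as star strand. Whether a star strand was annotated for the other markers is not given. Reads of that strand could therefore lie in their rest of the hairpin. The star strand took 53.0% of its reads in SVSC MDI (exact binomial 95% interval 45.1% to 60.9%), 13.6% in SVSC (11.4% to 15.9%), 36.4% in IVSC MDI (33.8% to 39.1%) and 31.6% in IVSC (29.5% to 33.8%). In reads these were 87 star against 77 mature in SVSC MDI, 128 against 813 in SVSC, 483 against 840 in IVSC MDI and 562 against 1209 in IVSC. The odds of a star read were 7.16 times those of SVSC in SVSC MDI (4.93 to 10.4), and 1.24 times those of IVSC in IVSC MDI (1.06 to 1.44). The strands of miR-126 thus parted in SVSC. Star reads were 4.74-fold higher in SVSC MDI than in SVSC (3.57 to 6.27), at 33.8 CPM in SVSC MDI and 7.14 CPM in SVSC. Mature reads had a ratio of 0.660 (0.516 to 0.835), at 29.9 CPM in SVSC MDI and 45.3 CPM in SVSC.

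SVSC and IVSC differed more in the star than in the mature strand. Star reads of miR-126 stood at 7.14 CPM in SVSC and 42.4 CPM in IVSC, a ratio of 0.168 (0.138 to 0.204), and mature reads at 45.3 CPM in SVSC and 91.2 CPM in IVSC, a ratio of 0.497 (0.454 to 0.543). The odds of a star read in SVSC were 0.339 times those in IVSC (0.272 to 0.420). After MDI the star levels were 33.8 CPM in SVSC MDI and 32.6 CPM in IVSC MDI, with a ratio of 1.04 (0.815 to 1.30). SVSC was therefore the library with the fewest star reads for its mature reads, 0.157 per mature read. The value was 1.13 in SVSC MDI, 0.575 in IVSC MDI and 0.465 in IVSC. Of the 7 miRNAs with at least 50 star and 50 mature reads in both fat libraries, miR-126 had the highest log2 change of star per mature read with MDI, 2.84. The other 6 ran from -1.92 (miR-140) to 0.29 (miR-24). miR-140 and miR-24 are named after their values were seen, as the ends of this range. These ratios within a hairpin do not depend on the scaling of the library.

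The blood cell miRNA miR-142 had 50 reads in SVSC MDI, 97 in SVSC, 383 in IVSC MDI and 376 in IVSC. The levels were 19.4 CPM (14.4 to 25.6) in SVSC MDI, 5.41 CPM (4.39 to 6.60) in SVSC, 25.9 CPM (23.3 to 28.6) in IVSC MDI and 28.4 CPM (25.6 to 31.4) in IVSC. SVSC stood apart as the low library. IVSC MDI did not differ from IVSC beyond the counting error (ratio 0.911, 0.789 to 1.05), and its ratio lay above 1 under scaling to all deposited reads. The ratio of SVSC MDI to IVSC MDI was 0.751 (0.548 to 1.01). miR-142 was 3.59-fold higher in SVSC MDI than in SVSC (2.50 to 5.11), and 5.25-fold lower in SVSC than in IVSC (4.19 to 6.63). The first of these calls was lost under scaling to all deposited reads, where miR-142 lay below 10 CPM in both libraries.

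Most miR-142 reads lay outside the annotated mature miRNA. All 50 reads in SVSC MDI, 94 of 97 in SVSC, 367 of 383 in IVSC MDI and 341 of 376 in IVSC were on the rest of the hairpin. Mature reads numbered 0 in SVSC MDI, 3 in SVSC, 16 in IVSC MDI and 35 in IVSC. In these mature reads, IVSC MDI had a ratio to IVSC of 0.409 (0.211 to 0.759), where the reads on the rest of the hairpin gave 0.963 (0.829 to 1.12).

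Among 6 listed blood miRNAs, 3 had a hairpin entry with a read, namely miR-142, miR-155 and miR-451. miR-155, which is induced in activated immune cells and also made by other cells, had 332 CPM in SVSC MDI, 416 CPM in SVSC, 377 CPM in IVSC MDI and 432 CPM in IVSC, and made up most of the blood sum. miR-451, the main miRNA of red cells, had 2.33 CPM in SVSC MDI, 2.56 CPM in SVSC, 6.41 CPM in IVSC MDI and 6.49 CPM in IVSC. Its ratio of SVSC to IVSC was 0.395 (0.270 to 0.572), with all levels below 10 CPM. miR-155 was called in none of the 4 pairs, with ratios between 0.800 and 0.961.

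The liver miRNA miR-122 had 5 reads in SVSC MDI, 432 in SVSC, 46 in IVSC MDI and 139 in IVSC. The levels were 1.94 CPM (0.631 to 4.53) in SVSC MDI, 24.1 CPM (21.9 to 26.5) in SVSC, 3.11 CPM (2.27 to 4.14) in IVSC MDI and 10.5 CPM (8.82 to 12.4) in IVSC. Both MDI libraries were low and did not differ beyond counting error (ratio 0.626, 0.194 to 1.57), and both undifferentiated libraries were high. miR-122 was 12.4-fold lower in SVSC MDI than in SVSC (5.27 to 38.4), and 3.38-fold lower in IVSC MDI than in IVSC (2.40 to 4.82). Its 10.5 CPM in IVSC is close to the 10 CPM that a call needs, and the call within IVSC was lost under DESeq2 size factors and under scaling to all deposited reads. It was 2.30-fold higher in SVSC than in IVSC (1.89 to 2.80).

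Nearly all of these reads lay outside the mature miRNA. The rest of the hairpin held 3 of 5 reads in SVSC MDI, 412 of 432 in SVSC, 43 of 46 in IVSC MDI and 122 of 139 in IVSC. Of the 42 mature miR-122 reads over the series, none matched the mature miRNA exactly. On mature reads the levels were 0.777 CPM in SVSC MDI (2 reads), 1.12 CPM in SVSC (20 reads), 0.203 CPM in IVSC MDI (3 reads) and 1.28 CPM in IVSC (17 reads). Their ratio was 0.697 in SVSC MDI to SVSC (0.0790 to 2.87), 0.158 in IVSC MDI to IVSC (0.0296 to 0.546) and 0.869 in SVSC to IVSC (0.432 to 1.77). Mature reads of miR-122 were below 10 CPM in every library, so none of its 3 calls could be made on them. The interval within SVSC included 1 but also the ratio of all reads, 0.0807, so it cannot decide. That within IVSC lay below 1. That between SVSC and IVSC included 1 and lay below the 2.30 of all reads.

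The other liver miRNAs listed were miR-192 and miR-194, which are also made in gut and kidney. miR-192 had 6.22 CPM in SVSC MDI, 12.5 CPM in SVSC, 13.1 CPM in IVSC MDI and 19.8 CPM in IVSC, from 16 reads in SVSC MDI and 194 to 262 in the others. It was 2.02-fold lower in SVSC MDI than in SVSC (1.22 to 3.59) and 2.11-fold lower than in IVSC MDI (1.26 to 3.76). miR-194 had no read in SVSC MDI, which allows up to 1.17 CPM, and 2.34 CPM in SVSC, 1.08 CPM in IVSC MDI and 1.58 CPM in IVSC. The exact counting interval of its ratio in SVSC MDI to SVSC reached up to 0.640.

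The neural miRNA miR-9 had 199 reads in SVSC MDI, 398 in SVSC, 411 in IVSC MDI and 168 in IVSC. Its copies mir-9-1 and mir-9-2 held nearly equal counts with no mature read unique to either, so they were counted once. The levels were 77.3 CPM (67.0 to 88.9) in SVSC MDI, 22.2 CPM (20.1 to 24.5) in SVSC, 27.8 CPM (25.1 to 30.6) in IVSC MDI and 12.7 CPM (10.8 to 14.7) in IVSC. No pair of these intervals overlapped. miR-9 was higher with MDI in both cultures, 3.49-fold in SVSC MDI over SVSC (2.93 to 4.14) and 2.19-fold in IVSC MDI over IVSC (1.83 to 2.64). It was also 2.79-fold higher in SVSC MDI than in IVSC MDI (2.34 to 3.31), a call lost under scaling to all deposited reads (log2 ratio 0.96). Between SVSC and IVSC its ratio was 1.75 (1.46 to 2.11), which passed 2-fold under 3 of the 4 other scalings.

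miR-9 was read mainly as the mature miRNA, which took 96.5% of its reads in SVSC MDI, 86.9% in SVSC, 92.7% in IVSC MDI and 70.8% in IVSC. On mature reads the rise with MDI was 3.87-fold in SVSC (3.23 to 4.63) and 2.86-fold in IVSC (2.33 to 3.55). Reads on the rest of the hairpin were few, and had a ratio of 0.938 (0.360 to 2.07) in SVSC MDI to SVSC and 0.548 (0.336 to 0.880) in IVSC MDI to IVSC. Exact matches made up 53.1% of mature miR-9 reads in SVSC MDI, 74.3% in SVSC, 53.5% in IVSC MDI and 56.3% in IVSC. Exact mature reads of miR-9 rose with MDI as well, 2.77-fold in SVSC (2.18 to 3.49) and 2.72-fold in IVSC (2.06 to 3.65).

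Among 7 listed neural names, 4 had a hairpin entry with a read. miR-128, which is enriched in brain and also made in muscle and other tissues, had 220 CPM in SVSC MDI, 23.2 CPM in SVSC, 48.8 CPM in IVSC MDI and 37.7 CPM in IVSC. It was called in SVSC MDI over SVSC (9.47-fold higher, 8.33 to 10.8) and in SVSC MDI over IVSC MDI (4.50-fold higher, 4.02 to 5.03). miR-124a, the miRNA most restricted to neurons in this list, had 1 read in SVSC MDI and none in SVSC, IVSC MDI or IVSC. It was thus at or below the limit of 3 reads in all 4 libraries. miR-153 had 4 reads in SVSC MDI, 6 in SVSC, 25 in IVSC MDI and 8 in IVSC, all at or below 1.69 CPM.

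The epithelial miRNA miR-184 had 52 reads in SVSC MDI, 74 in SVSC, 71 in IVSC MDI and 239 in IVSC. The levels were 20.2 CPM (15.1 to 26.5) in SVSC MDI, 4.13 CPM (3.24 to 5.18) in SVSC, 4.79 CPM (3.74 to 6.05) in IVSC MDI and 18.0 CPM (15.8 to 20.5) in IVSC. SVSC MDI and IVSC were high with overlapping intervals, and SVSC and IVSC MDI were low with overlapping intervals. miR-184 was thus 4.90-fold higher in SVSC MDI than in SVSC (3.37 to 7.08) and 3.76-fold lower in IVSC MDI than in IVSC (2.88 to 4.98). It was 4.22-fold higher in SVSC MDI than in IVSC MDI (2.89 to 6.11) and 4.37-fold lower in SVSC than in IVSC (3.35 to 5.75). All 4 calls held under the 4 other scalings and on mature reads.

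miR-184 reads were nearly all mature, 100% in SVSC MDI and SVSC, 97.2% in IVSC MDI and 96.2% in IVSC. Exact matches made up 86.5% of its mature reads in SVSC MDI (74.2% to 94.4%), 91.9% in SVSC (83.2% to 97.0%), 78.3% in IVSC MDI (66.7% to 87.3%) and 62.6% in IVSC (56.0% to 68.9%). IVSC thus had the lowest exact share. On exact reads alone, miR-184 remained 4.61-fold higher in SVSC MDI than in SVSC (3.09 to 6.82), and its ratio of IVSC MDI to IVSC was 0.336 (0.241 to 0.462).

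miR-205, the other epithelial miRNA, had 9 reads in SVSC MDI, 7 in SVSC, 5 in IVSC MDI and 2 in IVSC, all of them mature. The levels were 3.50 CPM (1.60 to 6.64) in SVSC MDI, 0.390 CPM (0.157 to 0.804) in SVSC, 0.338 CPM (0.110 to 0.788) in IVSC MDI and 0.151 CPM (0.0183 to 0.545) in IVSC. IVSC lay below its limit of 3 reads, and there miR-205 was the lowest of the 187 miRNAs with a read. SVSC MDI lay above the other libraries, with ratios of 8.96 to SVSC (2.97 to 28.3) and 10.4 to IVSC MDI (3.12 to 39.4). The ratio of IVSC MDI to IVSC was 2.24 (0.366 to 23.5) and that of SVSC to IVSC 2.59 (0.492 to 25.5), so no difference was detectable at this depth. No level reached 10 CPM, and miR-205 was left out of the calls.

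**Figure D3:**
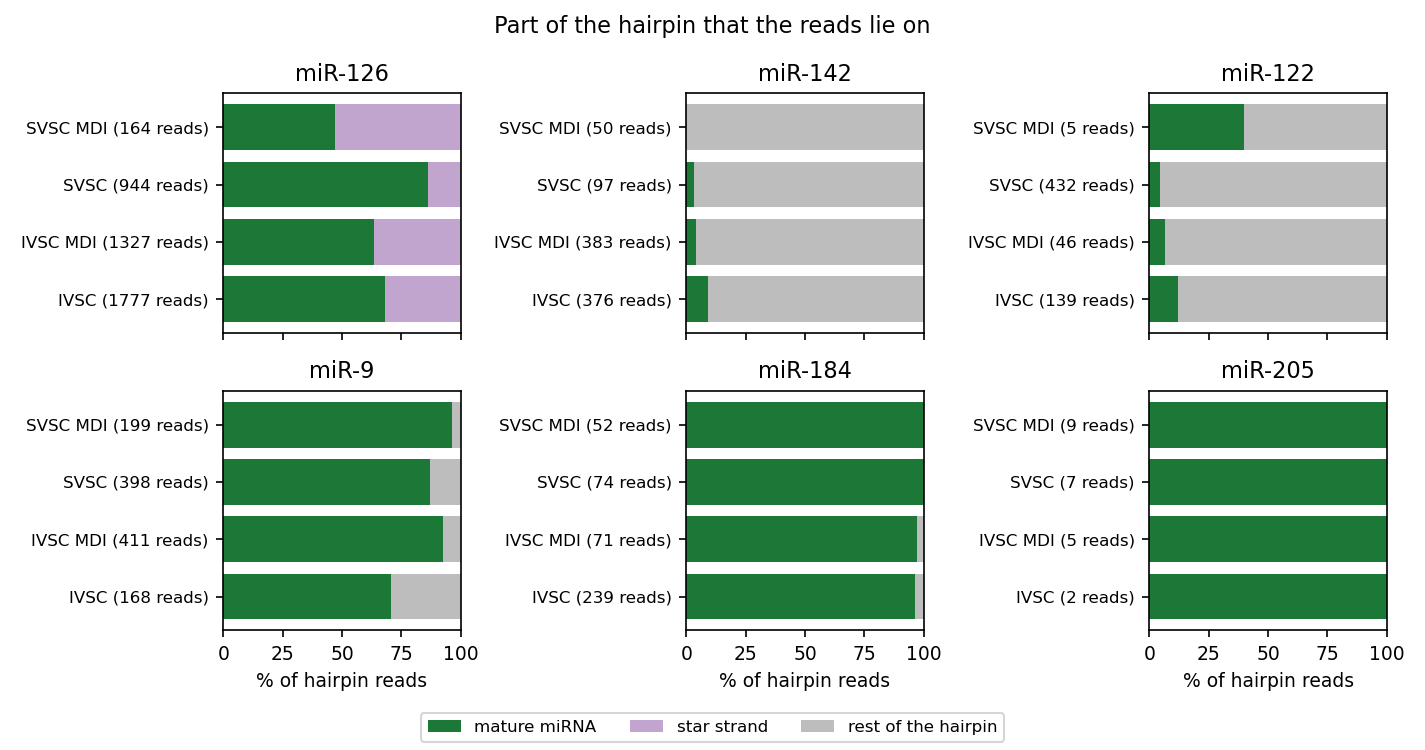
Share (%) of the hairpin reads of each miRNA on its mature strand, its star strand and elsewhere on the hairpin, by library, with the number of reads beside each bar. miR-142 and miR-122 lie mostly on the rest of the hairpin. Reads counted as star appear in miR-126 alone, where they range from 13.6% in SVSC to 53.0% in SVSC MDI.

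The read classes divided the 6 markers. Over the series the mature miRNA held 69.8% of the reads of miR-126, 88.3% of miR-9, 97.5% of miR-184 and 100% of miR-205, but 5.96% of miR-142 and 6.75% of miR-122. Reads on the rest of a hairpin were recorded as exact matches for every hairpin entry. No source used here says from which arm of the hairpin they came.

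The ratios were then read against those of all miRNAs that reached 10 CPM in 1 or both libraries of a pair. A call needed a 2-fold difference and a counting interval that excluded 1. With MDI in SVSC, 4 of the 6 markers were called, miR-142, miR-9 and miR-184 higher and miR-122 lower, where 56.2% of 146 miRNAs were called (34.2% higher, 21.9% lower). With MDI in IVSC, 3 were called, miR-9 higher and miR-122 and miR-184 lower, against 40.1% of 152 miRNAs (16.4% higher, 23.7% lower). In SVSC MDI over IVSC MDI, 2 were called, miR-9 and miR-184 higher, against 27.9% of 147 miRNAs (17.7% higher, 10.2% lower). In SVSC over IVSC, 4 were called, miR-122 higher and miR-126, miR-142 and miR-184 lower, against 28.4% of 148 miRNAs (7.43% higher, 20.9% lower). The markers compared in these pairs numbered 5, 5, 4 and 5, in the order above. miR-205 was below 10 CPM in all of these pairs and miR-122 in SVSC MDI and IVSC MDI. A marker near that level enters a comparison only through the library where it is high, so these counts describe the markers and support nothing further.

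The median log2 ratio of the 6 was 1.82 in SVSC MDI over SVSC, where that of all miRNAs compared was 0.41. It was -0.36 in IVSC MDI over IVSC (all -0.04), 0.53 in SVSC MDI over IVSC MDI (all 0.13) and -0.27 in SVSC over IVSC (all -0.25). These medians are not like for like. That of the 6 includes markers below 10 CPM in both libraries, miR-205 in every pair, and that of all leaves such miRNAs out. In SVSC over IVSC the 5 markers compared had log2 ratios of -2.39 (miR-142), -2.13 (miR-184), -1.35 (miR-126), 0.81 (miR-9) and 1.20 (miR-122). Another scaling moves every log2 ratio of a pair alike, by -0.50 to -0.40 within SVSC, -0.04 to 0.22 within IVSC, -0.52 to -0.04 in SVSC MDI over IVSC MDI and 0.18 to 0.37 in SVSC over IVSC. The balance of all calls moved with it. The 50 higher and 32 lower calls within SVSC became 33 and 44 under scaling to all deposited reads, and the 25 and 36 within IVSC became 32 and 21. The 26 and 15 of SVSC MDI over IVSC MDI became 7 and 29, while the 11 and 31 of SVSC over IVSC became 28 and 24 under DESeq2 size factors.

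**Figure D4:**
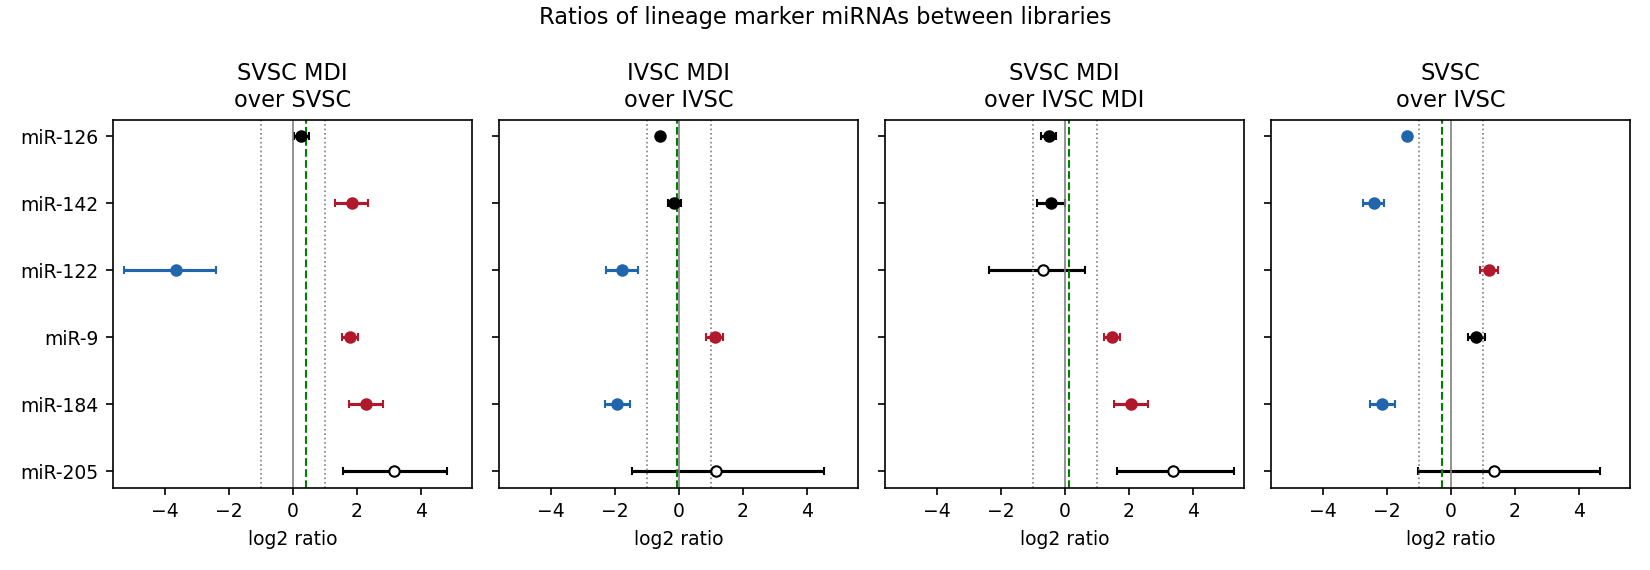
log2 ratios of the 6 markers in 4 pairs of libraries with exact 95% counting intervals. Red points were called higher, blue points lower and black points were not called, and open points were below 10 CPM in both libraries. Dotted lines mark 2-fold and green dashed lines the median of all miRNAs compared. miR-184 changes side between the first and second panel.

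Set side by side, the MDI ratios of SVSC and IVSC use no common library. miR-9 was higher and miR-122 lower with MDI in both cultures. The log2 MDI ratio of miR-184 was 2.29 in SVSC and -1.91 in IVSC, a difference of 4.20 (3.57 to 4.84, counting error only), the 4th in size among 155 miRNAs. For miR-142 the values were 1.85 in SVSC and -0.13 in IVSC, a difference of 1.98 (1.45 to 2.51). The differences of miR-126 (0.86, 0.60 to 1.12) and miR-9 (0.67, 0.31 to 1.03) were below the median size over all 155, 0.942. That of miR-122 was -1.88 (-3.24 to -0.52). For miR-205 it was 2.00, with an interval that included 0 (-0.76 to 4.76).

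**Figure D5:**
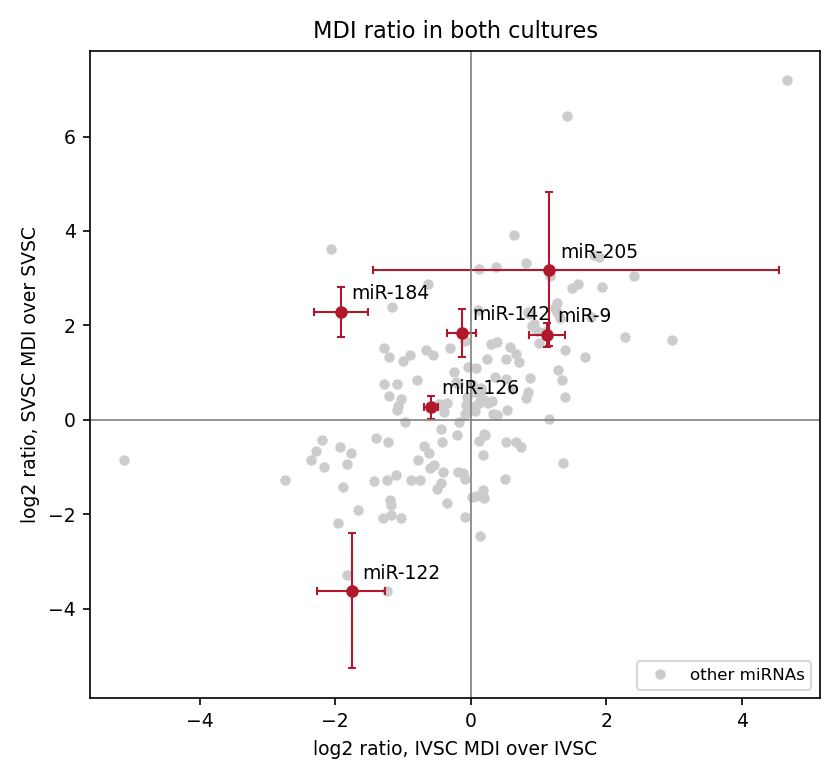
log2 MDI ratio in SVSC (vertical) against that in IVSC (horizontal), with the 6 markers in red and their exact 95% counting intervals. Grey points are other miRNAs. miR-9 lies in the upper right, miR-122 in the lower left and miR-184 in the upper left, at 2.29 in SVSC and -1.91 in IVSC.

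An effect common to both cultures was tested over all 4 libraries with edgeR's quasi-likelihood test, with culture as a block and 1 residual degree of freedom. None of the 5 markers tested passed an adjusted p of 0.05 for MDI, where 10.6% of 179 miRNAs did, and miR-122 alone had an unadjusted p below 0.05. Its log2 MDI ratio was -2.73 (SE 1.09, adjusted p = 0.0789 by edgeR with Benjamini-Hochberg adjustment), lower in both cultures. By DESeq2 miR-122 passed (log2 ratio -2.80, adjusted p = 0.0162), where 19.6% of 179 miRNAs did. Under the other edgeR settings its adjusted p lay between 0.0649 and 0.587, the highest on mature reads, where the log2 ratio was -1.86. miR-9 had a log2 MDI ratio of 1.30 (SE 0.846, edgeR adjusted p = 0.361), higher in both cultures. For origin, with MDI state as the block, none of the 5 passed in edgeR, where 2.79% of 179 miRNAs did, and none had an unadjusted p below 0.05. By DESeq2 none of the 5 passed, where 5.59% of 179 miRNAs did, and 1 had an unadjusted p below 0.05. In this fit a difference of the MDI effect between the cultures counts as spread, and spread between animals or preparations is not measured.

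The miRNAs whose pattern over the 4 libraries was most like that of each marker were found by the Euclidean distance of centred log2 CPM, among 154 candidates. miR-205, below 10 CPM throughout, was left out. miR-122 was nearest to miR-363 (distance 0.327, against a median of 3.31), which had 8.55 CPM in SVSC MDI, 83.8 CPM in SVSC, 13.8 CPM in IVSC MDI and 49.0 CPM in IVSC, and then to miR-106a (1.22). miR-9 was nearest to miR-1271 (0.449) and let-7e (0.460, median 2.13). miR-126 was nearest to miR-101 (0.435) and miR-664 (0.460, median 1.67). miR-142 was nearest to miR-29c (0.729) and miR-19b (0.744, median 2.11). miR-184 had no close neighbour, the nearest being miR-423 (1.02) and miR-676 (1.02, median 2.31). Among the markers themselves, miR-126 and miR-142 were the most alike (1.25) and miR-122 and miR-9 the least (4.44). These distances rest on 4 libraries, which share depth and scaling across miRNAs.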

How the data were processed

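Small RNA of 16 to 35 nt from about 10 µg of total RNA was amplified over 12 PCR cycles and read for 36 cycles, per the labels' protocols. The deposited values are read counts per feature, per the file headers, for Rfam entries, piRNAs, Ensembl non-coding RNAs (Sscrofa9.61) and pig hairpins. No source used here gives the aligner, the mismatches allowed or the trimming tool, and the submitters' processing notes name mm9 without a role. Each hairpin has counts on the mature miRNA, the star strand and the rest, and their sum was used. The deposited values in 1 column of the SVSC file (unique mature reads) include a few blank or damaged Rfam values, which are other than counts. Only its whole hairpin values were used.

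Copies of a hairpin were counted once, as the largest copy plus the unique mature reads of the others. Features without a resource name (1 in SVSC MDI, 3 in SVSC) were left out. Ratios carry exact Clopper-Pearson 95% intervals, given the sum of a miRNA's reads in the pair (SciPy 1.17.1, Python 3.11.15). Calls needed 10 CPM in 1 library, 2-fold and an interval excluding 1. Common effects were fitted with edgeR 4.0.16 (R 4.3.3, TMM, filterByExpr), with DESeq2 1.42.0 as the alternative. On simulated counts the share of changed miRNAs that edgeR recovered varied between draws and was low in 1 of them, so a miRNA that missed its threshold may still differ. The prior degrees of freedom were infinite, so no miRNA was given a spread of its own. Reads were amplified without molecular identifiers, so they are not independent molecules. All 6 markers are named, beside the listed markers of other tissues, the most abundant miRNA of a library and the 2 nearest patterns of each marker. Members and lists were chosen with earlier results of these data known. Alternatives covered scaling, copies, read class, the filter and the tool.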

Additional observations from a re-analysis of the deposited data

Results flagged for a closer look

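miR-184 moved in opposite directions with MDI in the cultures, higher in SVSC MDI than in SVSC and lower in IVSC MDI than in IVSC, and its log2 MDI ratio was larger in SVSC by 4.20. With 1 library per group this difference was not tested beyond counting error. Each ratio kept its direction under the 4 other scalings (1.79 to 1.89 in SVSC, -1.95 to -1.69 in IVSC). miR-126 stood at a ratio above 1 in SVSC and below 1 in IVSC, a log2 difference of 0.86 that was likewise not tested. Its direction in SVSC turned under every other scaling. On mature reads miR-126 had a ratio below 1 in both cultures, 0.660 in SVSC MDI to SVSC and 0.622 in IVSC MDI to IVSC. With mature reads scaled to the miRNA reads, its log2 difference was 0.087 (-0.27 to 0.45).

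Rfam entries, which no comparison used, also held reads of listed marker families. The values are those of the entry with the most reads in a library, since entries of a family can share reads. The epithelial miR-203, of the skin, had 13 reads in SVSC MDI (5.05 CPM of the miRNA reads), 99 in SVSC (5.52 CPM), 30 in IVSC MDI (2.03 CPM) and 35 in IVSC (2.64 CPM). miR-9 entries held 5 reads in SVSC MDI, 32 in SVSC, 13 in IVSC MDI and 12 in IVSC beside those of its hairpins. miR-155 entries reached 43 reads (SVSC), miR-126 entries 7 (IVSC), miR-128 entries 5 (IVSC), miR-184 entries 5 (SVSC) and miR-150 entries 5 (SVSC MDI). Entries of miR-8, the Rfam family that holds the epithelial miR-200 miRNAs and was added after the data were seen, reached 5 reads in SVSC MDI and at most 2 in the other libraries.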

How the results depend on the processing

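Of the 19 ratios compared, 13 were called, where 27.9% to 56.2% of all miRNAs were called in a pair, and 9 of the 13 were called under all 4 other scalings. Reads on the mature miRNA, or those matching it exactly, were scaled to their own total in a library and also, in alternatives chosen after seeing the data, to the miRNA reads. The share of all miRNAs called on these reads, without the filter or with copies summed is not given here. Counts of markers called in these settings thus support nothing further. On mature reads 2 markers were called in SVSC MDI over SVSC under either denominator, where 4 had been. In SVSC over IVSC 2 were called on their own total and 3 (miR-126, miR-9 and miR-184) on the miRNA reads. On exact reads 2 (miR-9 and miR-184) were called in SVSC over IVSC under either denominator, and 2 in SVSC MDI over SVSC on the miRNA reads. The log2 ratio of miR-122 in SVSC over IVSC turned to -0.42 on mature reads and to -0.20 with these scaled to the miRNA reads, from 20 reads in SVSC and 17 in IVSC. Its difference of MDI ratios turned to 2.38 and 2.14, both with intervals that include 0. That of miR-126 was 0.33 on mature reads scaled to their own total and 0.087 with these scaled to the miRNA reads. Under scaling to all deposited reads it was 0.15, and each of these intervals included 0. It turned to -0.70 on exact reads scaled to their own total and to -0.22 scaled to the miRNA reads. The cause was not tested. The difference of miR-9 was -0.033 under scaling to all deposited reads. On exact reads it was -0.46 scaled to their own total and 0.022 scaled to the miRNA reads, so this sign follows the denominator. miR-126 was called lower in both pairs with SVSC MDI on exact reads scaled to their own total, and in neither on the miRNA reads. With copies summed as deposited, miR-122 was no longer called within IVSC. Without the filter on low counts, miR-205 was called higher in both pairs with SVSC MDI. Over both cultures, 19 miRNAs passed for MDI and 5 for origin in edgeR, against 35 and 10 in DESeq2, and 31 for MDI on mature reads. No paired analysis by replicate number was possible because each group holds 1 library, and culture or MDI state served as the block in the edgeR fit. Depth limits SVSC MDI most, where 1 read is 0.389 CPM.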

Other observations

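Several listed marker families had reads in Rfam entries and no hairpin entry with a read. Their highest entries held at most 3 reads in any library for miR-223 and miR-375, and at most 2 for miR-219 and 1 for miR-144. A count of 0 allows up to 3 reads, so none of these 4 families stood above that limit. miR-150, of lymphocytes, had 5 reads in SVSC MDI and 1 in IVSC MDI.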
